A study of Homo sapiens with 24 samples.

Results

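SET2 cells grown continuously in the JAK inhibitor INC424 (ruxolitinib) were compared with naive SET2 cells, by 3 poly(A) RNA-seq libraries of the persistent line and 3 of the naive line out of 24 libraries in 8 groups. Of 25082 genes in the deposited table, 17522 reached 10 normalised counts in 3 or more of these 6 libraries and were tested. A normalised count is a gene's reads divided by 1 size factor per library, so values are comparable between libraries but not between genes of different length. SET2 cells are an established human line of megakaryoblasts, derived from a myeloproliferative disease and dependent on JAK2. All groups were cultured in RPMI1640 with 20% FCS. The persistent line had INC424 in its medium throughout, and the naive libraries come from cells with no inhibitor and no vehicle named. For context, single genes are also given in 3 further groups: naive cells with DMSO, the vehicle of the acute exposures, for 4 h, naive cells with INC424 for 4 h, and naive cells with INC424 for 48 h. Persistent lines grown in BMS911543, CYT387 or SAR302503, other type I inhibitors, served to test where the INC424 line differed from them. Inhibitor concentrations, the length of the culture in inhibitor and whether replicates were separate cultures are not in the labels. The INC424 line is 1 line, so p-values measure only the spread between its 3 libraries and the 3 naive libraries, which may be technical, and a difference between lines cannot be told apart from an effect of the inhibitor.

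JAK2 is bound by cytokine receptors such as that for erythropoietin and phosphorylates STAT proteins, chiefly STAT5, which move to the nucleus and switch on genes such as CISH, PIM1 and members of the SOCS family. The SOCS and CISH proteins in turn dampen the pathway. The same receptors feed the RAS-ERK and PI3K pathways. Type I inhibitors such as ruxolitinib occupy the ATP site of the active kinase, and cells that persist in them have been described to regain JAK-STAT signalling while the drug is present.

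The 6 libraries held between 25636056 and 36160750 reads. Log values correlated at 0.979 to 0.986 among the INC424 libraries, 0.974 to 0.984 among the naive libraries and 0.911 to 0.925 between the groups, described over genes of the same libraries. Most defining markers of the labelled cell type were present in both groups. ITGA2B, the platelet integrin alpha chain, had normalised counts of 68794, 57244 and 64838 in the INC424 libraries and 88826, 101744 and 107662 in the naive libraries. Means in the INC424 and naive libraries were 5263 and 3820 for ITGB3, 2421 and 1838 for GP1BA, and 1127 and 389 for GP9. They were 376 and 358 for VWF, 466 and 15.2 for PPBP, and 141 and 0 for PF4. GP1BB was not in the table. Markers of squamous epithelium, which a blood line should lack, made up 0.00882%, 0.0361% and 0.00692% of the signal in the INC424 libraries, highest in library 2, and 0.00140% to 0.00386% in the naive libraries. Of 14 such markers in the table, none was at 0 in the INC424 libraries and between 1 and 5 were at 0 in each naive library. Markers of stroma, vessel and macrophages stayed at or under 0.00115% in all 6, with 3 to 5 of 14 at 0 in the INC424 libraries and 5 to 6 of 14 at 0 in the naive libraries. The mitochondrially encoded genes took 1.62% to 2.83% of the signal in the INC424 libraries and 1.71% to 2.47% in the naive ones. Fewer cells of a type and less RNA per cell cannot be told apart in such bulk libraries.

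Against naive cells, 2614 genes were higher in the INC424 line (14.9% of those tested) and 3030 lower (17.3%), by limma on log2(normalised count + 1) with Benjamini-Hochberg adjustment at 0.05. In all, 5644 genes were called (32.2%), and at an unadjusted p under 0.05 the number was 7447. Of the called genes, 1031 rose and 1521 fell by at least 2-fold, and 308 rose and 309 fell by at least 8-fold. The median log2 difference over all genes tested was 0.02. The 3 INC424 libraries did not overlap the 3 naive ones for 46.6% of all genes tested, 23% with the INC424 libraries higher and 23.6% with them lower. Below, values in brackets are log2 differences ± SE, INC424 line minus naive unless another control is named. Counts of list members against naive are to be read beside the shares of all genes tested, 14.9% higher and 17.3% lower. Most list members named were chosen for large differences, so groups that lie apart in them follow in part from that choice. The count of higher genes ranged from 1744 without INC424 library 1 to 3146 without naive library 1.

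The 10 largest rises included genes that were at or near 0 in naive cells. MAL, which encodes a membrane protein of lipid rafts, had normalised counts of 858, 769.8 and 855 in the INC424 libraries and 0, 0 and 3.06 in the naive libraries; over the 3 naive libraries it had 3 reads, a ratio of 760.4-fold (95% interval 259.9 to 3689.5) by counting error alone. COL11A1, a fibrillar collagen chain, stood at 2646, 2329 and 2694 in the INC424 libraries and 15.2, 16.2 and 17.3 in the naive libraries (log2 difference 7.21 ± 0.17 (SE), adjusted p = 3.7e-09). IGFBP5, a binding protein of insulin-like growth factors, stood at 5248, 4671 and 5092 in the INC424 libraries and 52.7, 33.4 and 33.6 in the naive libraries (6.96 ± 0.19, adjusted p = 8.5e-09). The INC424 and naive libraries of these 3 genes lay far apart, with no overlap. PF4, the platelet chemokine of alpha granules, was at 168, 86.9 and 167 in the INC424 line and had no read in any naive library, which makes it at least 128-fold higher (floor of 3 reads over the group). IFIT1B, a paralogue of IFIT1 in the IFIT gene family, was at 108, 131 and 128 with no naive read, at least 114-fold higher. For TRPC6, a cation channel, the counts were 132, 147 and 169 in the INC424 libraries and 0, 1.08 and 0 in the naive libraries, with 1 naive read in all and a ratio of 418-fold (95% interval 74.7 to 16540.4). WLS, which carries WNT proteins to the cell surface, was at 744, 773 and 707 in the INC424 libraries and 4.69, 17.3 and 1.02 in the naive libraries (6.96 ± 0.62, adjusted p = 1.8e-05). EPB41L3, a membrane skeleton protein, was at 1364, 1239 and 1185 in the INC424 libraries and 39.9, 2.16 and 3.06 in the naive libraries, a log2 difference of 7.29, and 8.46 without naive library 1. CABP7, a calcium-binding protein, and CRHBP, which binds corticotropin-releasing hormone, completed the 10, with 1221, 1035 and 1202 and 311, 263 and 303 in the INC424 libraries. All 10 genes were apart between the groups, as the rule that chose them asked. MAL, PF4, IFIT1B, TRPC6 and CRHBP were under 10 in every naive library. They passed the filter only through the INC424 libraries, where they are high.

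**Figure D1:**
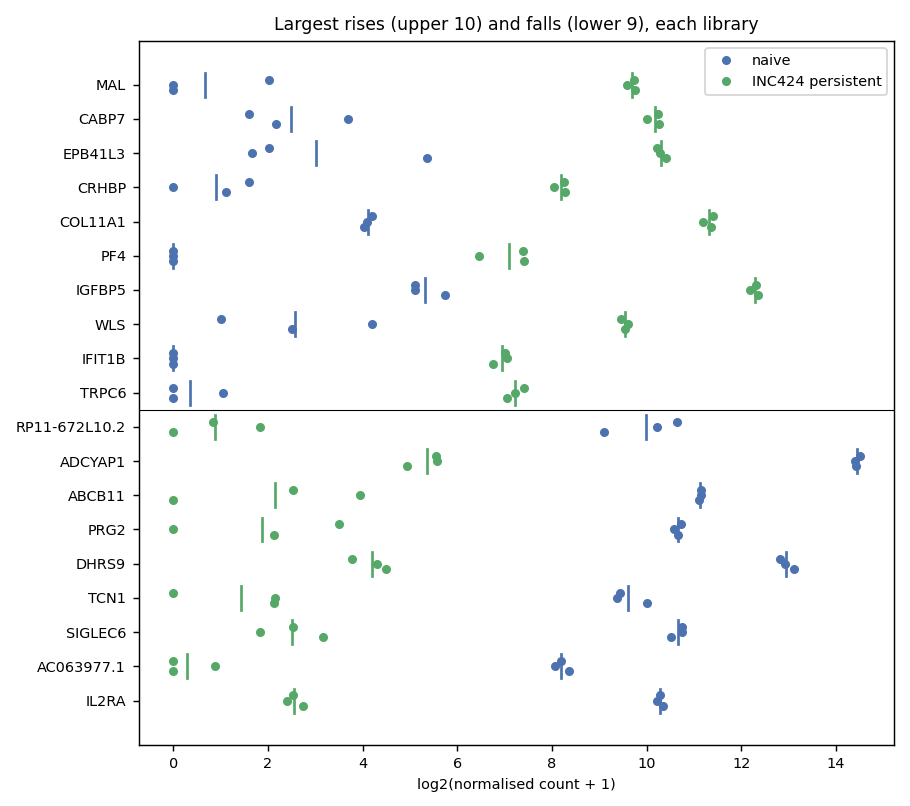
Log2(normalised count + 1) of the 10 genes with the largest rises and 9 of the 10 with the largest falls, 1 point per library (3 naive, 3 INC424 persistent) and a bar at each group's mean. The groups do not overlap for any of the 19 genes, and PF4 and IFIT1B sit at 0 in all 3 naive libraries.

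Among the 10 largest falls, ADCYAP1, which encodes the neuropeptide PACAP, had normalised counts of 29.5, 46.8 and 46 in the INC424 libraries and 21812, 21492 and 23311 in the naive libraries (log2 difference -9.08 ± 0.17 (SE), adjusted p = 1.7e-09). ABCB11, the bile salt export pump, stood at 0, 14.5 and 4.75 in the INC424 libraries and 2200.0, 2282 and 2277 in the naive libraries, and DHRS9, a retinol dehydrogenase, at 21.5, 18.7 and 12.7 in the INC424 libraries and 8877, 7738 and 7177 in the naive libraries (-8.76 ± 0.20, adjusted p = 3.5e-09). In all 3 INC424 libraries each of these genes was under 50. IL2RA, the alpha chain of the interleukin-2 receptor and a STAT5 target gene, was at 5.67, 4.26 and 4.75 in the INC424 libraries and 1309, 1186 and 1254 in the naive libraries (-7.74 ± 0.23, adjusted p = 1.5e-08). PRG2 and TCN1, both granule proteins of myeloid cells, and SIGLEC6, a sialic acid receptor, were also among them, with the transcripts AC063977.1 and RP11-672L10.2.

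**Figure D2:**
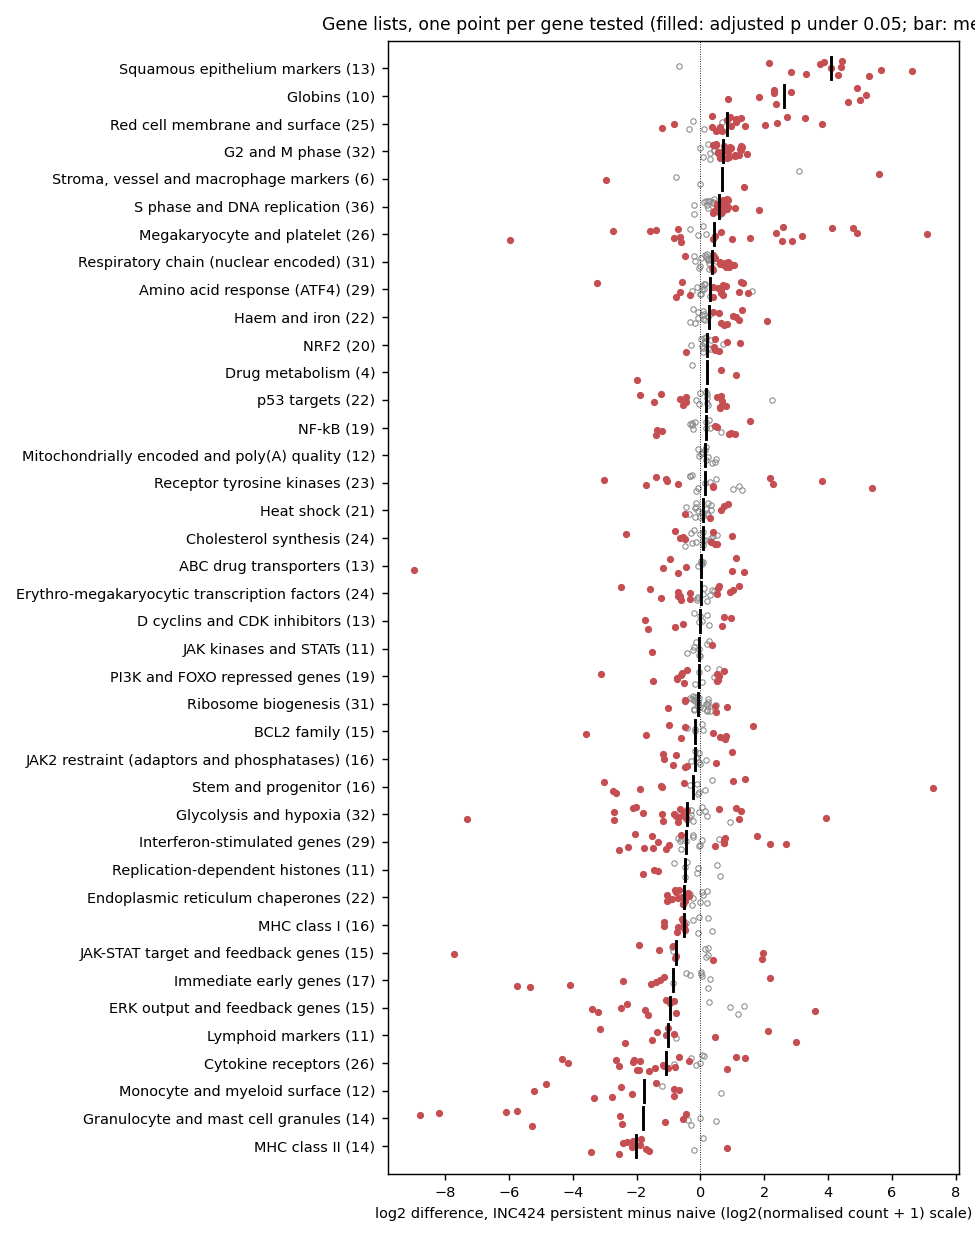
Log2 difference, INC424 persistent minus naive, of every tested gene in 40 lists of pathway, lineage and marker genes, with the number tested in brackets; filled points passed the test, open points did not, and the bar is the list's median. Globins (median 2.60) lie to the right, and MHC class II genes (-2.00) and granule genes (-1.79) to the left.

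Of the 4 JAKs, none passed the test against naive cells. JAK2 had normalised counts of 3707, 4266 and 3623 in the INC424 libraries and 4382, 3747 and 3744 in the naive libraries, a log2 difference of -0.03 ± 0.11, adjusted p = 0.85 (95% interval -0.29 to 0.22). The groups overlapped, as they did for JAK1, JAK3, TYK2 and STAT3. JAK1 differed by -0.02 (adjusted p = 0.91), STAT3 by -0.05 (adjusted p = 0.76) and STAT5B by 0.21 (adjusted p = 0.12). Of 11 JAKs and STATs tested, 1 rose and 1 fell (3 fell without naive library 1), while against the DMSO controls introduced below 7 were higher and 1 lower (median 0.38). STAT5A was the one that rose, from 20286, 21742 and 22241 to 29245, 24995 and 28233 (0.36 ± 0.11, adjusted p = 0.029), but the call was lost when INC424 library 1 or 3 or naive library 2 or 3 was left out (adjusted p 0.059 to 0.13), and in the fit of all 24 libraries (0.33). JAK3, at 6964, 6018 and 6656 in the INC424 libraries and 5931, 10319 and 11282 in the naive libraries, passed without naive library 1 (adjusted p = 0.00014).

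Of 15 STAT target and feedback genes, 3 rose and 6 fell (median -0.75); without INC424 library 1, 1 rose. CISH, the feedback inhibitor most tied to STAT5, was at 1398, 1161 and 1433 in the INC424 libraries and 1034, 1278 and 1222 in the naive libraries and overlapped between the groups (0.18 ± 0.13, adjusted p = 0.35; 95% interval -0.12 to 0.47). PIM1, a survival kinase, fell from 32916, 32870.1 and 34503 to 14418, 12602 and 13622 (-1.30 ± 0.10, adjusted p = 7.1e-06). SOCS3, a feedback inhibitor of cytokine receptors, fell from 3718, 4214 and 4133 to 1010.4, 967 and 1194 (-1.93 ± 0.12, adjusted p = 1.2e-06). The groups were apart for PIM1 and SOCS3, with every INC424 library lower. SOCS2, another feedback inhibitor, differed by -0.86 ± 0.12, adjusted p = 0.00036, and CCND2, cyclin D2, by -0.79 ± 0.12, adjusted p = 0.00077. The 3 that rose were LRRC32 (GARP, a cell-surface anchor of latent TGF-beta), from 75, 89.5 and 75.4 to 365, 251 and 339.9 (1.97 ± 0.21, adjusted p = 6.5e-05), BCL6, a transcriptional repressor that STAT5 represses, and BCL2L1, which encodes the survival protein BCL-XL. BCL6 was low, with 44.2, 46.8 and 30.9 in the INC424 libraries and 5.86, 7.55 and 20.4 in the naive libraries (1.93 ± 0.49, adjusted p = 0.013), and missed the threshold without INC424 library 1 or 2 (adjusted p = 0.05, unrounded just above the threshold, and 0.052), and in the fit of all 24 libraries (0.12). BCL2L1 stood at 8233, 7107 and 8484 in the INC424 libraries and 6034, 6230.3 and 5773 in the naive libraries (0.40 ± 0.11, adjusted p = 0.015) and missed it without INC424 library 1, INC424 library 3 or naive library 3 (adjusted p 0.057 to 0.077).

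The acute groups show where the persistent line stood relative to cells just exposed to the inhibitor. CISH was at 228, 249 and 201 after 4 h of INC424 and 723, 691 and 691 after 48 h, below every persistent, naive and DMSO library. PIM1 was at 1862, 1891 and 1921 after 4 h and 4698, 4722 and 4781 after 48 h, also below all 3 persistent libraries. MYC, a growth regulator downstream of several pathways, did not pass against naive cells (25221, 19921 and 25881 in the INC424 libraries and 22064, 23033 and 25072 in the naive libraries; 0.01 ± 0.13, adjusted p = 0.96). The short exposures were not tested against the persistent line here.

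**Figure D3:**
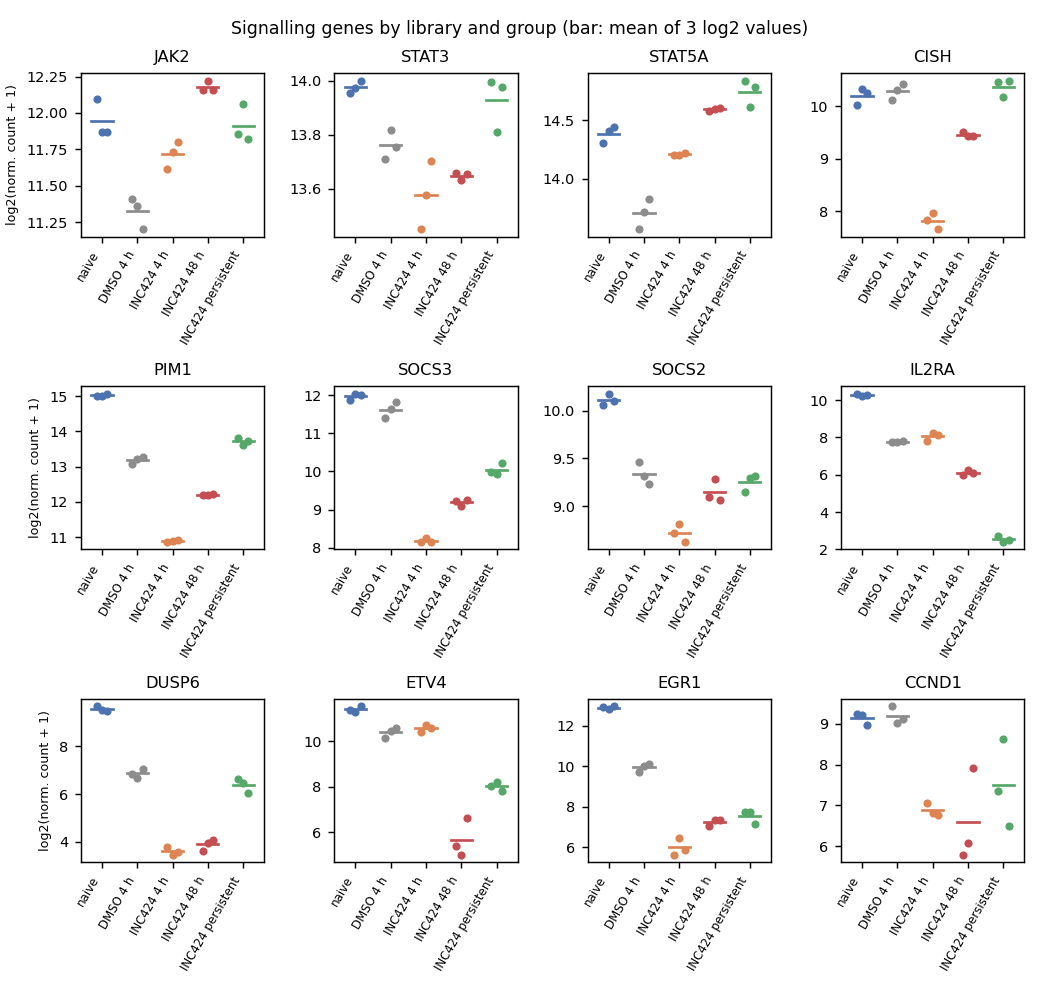
Log2(normalised count + 1) of 12 signalling genes in naive cells, naive cells with DMSO for 4 h, naive cells with INC424 for 4 h or 48 h, and the INC424 persistent line; 3 points per group and a bar at their mean, each panel with its own axis that does not start at 0. CISH is lowest at 4 h of INC424 and overlaps the naive points in the persistent line, while IL2RA and EGR1 are far below naive there.

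The DMSO libraries are a second set of naive cells, and several of these genes differed between the controls. Against DMSO, 8984 genes were called (51.3%), 4674 higher (26.7%) and 4310 lower (24.6%); the INC424 libraries are shared by both comparisons. PIM1 was at 8558, 9511 and 9936 with DMSO, so the persistent line was lower than naive cells but higher than DMSO cells (0.54 ± 0.09, adjusted p = 0.00034). SOCS2 was at 707, 637 and 600.2 with DMSO and did not pass (-0.08 ± 0.11, adjusted p = 0.56). SOCS3 and IL2RA were lower against DMSO as well (-1.58 ± 0.12, adjusted p = 1.5e-06 for SOCS3 and -5.22 ± 0.29, adjusted p = 1.3e-07 for IL2RA). JAK2, near its naive level, was higher than with DMSO, where it stood at 2725, 2628 and 2356 (0.59 ± 0.09, adjusted p = 0.00033).

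Promoter sequences of 2 falling and 1 rising STAT target are shown because STAT5 binds the motif TTCNNNGAA, a pattern that is the same on both strands. They are the 250 bases before the gene's start, 5′ to 3′ on the gene's strand, from RefSeq on GRCh38.p14, a later build than the hg19 used for the counts, with motif matches in capitals. Of the 9 called genes of the list, 5 had an entry: SOCS3, PIM1, BCL2L1, BCL6 and IL2RA; SOCS2, LRRC32, CCND2 and DUSP5 had none.
IL2RA (chr10:6062368-6062617, minus strand): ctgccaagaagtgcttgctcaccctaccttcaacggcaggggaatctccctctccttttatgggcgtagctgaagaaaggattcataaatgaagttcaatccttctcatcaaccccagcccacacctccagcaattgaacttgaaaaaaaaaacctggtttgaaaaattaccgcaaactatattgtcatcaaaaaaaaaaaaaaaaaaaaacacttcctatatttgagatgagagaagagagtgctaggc
SOCS3 (chr17:78360926-78361175, minus strand): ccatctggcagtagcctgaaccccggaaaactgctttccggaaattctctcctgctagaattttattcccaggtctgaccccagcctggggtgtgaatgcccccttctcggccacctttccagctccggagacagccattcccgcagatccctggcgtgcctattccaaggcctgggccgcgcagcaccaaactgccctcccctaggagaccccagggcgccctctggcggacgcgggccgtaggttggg
BCL6 (chr3:187745469-187745718, minus strand): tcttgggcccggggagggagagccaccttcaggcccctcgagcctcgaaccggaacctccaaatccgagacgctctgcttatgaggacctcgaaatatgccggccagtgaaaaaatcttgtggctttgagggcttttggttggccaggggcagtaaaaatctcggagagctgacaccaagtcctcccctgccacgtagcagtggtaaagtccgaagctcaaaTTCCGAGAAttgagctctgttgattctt
BCL6 held 1 match, and the other 4 held none within these bases. Of 35116 promoters of that length in the table, 6.57% held the motif.

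Most cytokine receptor genes fell, while the receptor for erythropoietin rose. Of 26 tested, 17 fell and 3 rose, with a median log2 difference of -1.08. EPOR, the erythropoietin receptor, rose from 718, 996 and 1064 to 1706, 1396 and 1836 (0.84 ± 0.17, adjusted p = 0.0034). IL9R, the IL-9 receptor, rose too (1.41). CSF2RB, the beta chain shared by the receptors for GM-CSF, IL-3 and IL-5, fell from 32509, 42676 and 46014 to 11235, 9620.4 and 10646 (-1.93 ± 0.14, adjusted p = 4.2e-06). IL6R, the IL-6 binding chain, fell from 1525, 1328 and 1356 to 54.4, 86 and 69.7 (-4.33 ± 0.19, adjusted p = 1.3e-07), and IL1RL1, the IL-33 receptor, from 954, 1010.3 and 949.8 to 49.9, 44.3 and 68.9 (-4.16 ± 0.20, adjusted p = 2.3e-07). The groups of all these receptors were apart. All 4 interferon receptor chains on the list fell, by log2 differences from -1.43 for IFNAR2 to -0.78 for IFNGR1. IL5RA fell from 527, 499 and 484 to 86.2, 76.6 and 75.3, yet stood at 35.8, 32 and 60.9 with DMSO, below the persistent line (0.93 ± 0.29, adjusted p = 0.019).

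Among 23 receptor tyrosine kinases 6 rose and 6 fell. KIT, the stem cell factor receptor, fell from 24656, 22179 and 21612 to 2751, 2975 and 2726 (-3.02 ± 0.10, adjusted p = 2.6e-08). KDR, a receptor for VEGF, rose from 157, 169 and 121 to 2158, 2002 and 2051 (3.80 ± 0.15, adjusted p = 8.7e-08). Both changes exceeded the spread by far. EGFR and FGFR2, receptors of epithelial cells, were at 120.2, 697 and 94.3 and 27.2, 149.9 and 26.1 in the INC424 libraries, each highest in library 2, the library with the largest share of squamous markers. Their naive values were 0, 36.7 and 2.04 and 11.7, 11.9 and 5.1. FGFR2 missed the threshold without INC424 library 2 (adjusted p = 0.071) or naive library 3 (0.069), and in the fit of all 24 libraries FGFR2 (0.39) and EGFR (0.097) both missed it. The squamous markers themselves rose for 12 of 13 tested (2 in the fit of all 24 libraries), KRT14 from 7.03, 1.08 and 0 to 312, 450.4 and 114 (6.63 ± 0.74, adjusted p = 8.6e-05) and COL17A1 from 0, 85.2 and 2.04 to 124, 849.8 and 141 (5.27 ± 1.36, adjusted p = 0.014; 0.076 without INC424 library 2 and 0.12 in the fit of all 24 libraries). Both of these passed the filter only through the INC424 libraries, where they are high. The count of rising markers is thus in part fixed by the filter and is no independent support. The part of the squamous markers in the values of EGFR and FGFR2 was not tested. Without naive library 3, the count of receptor tyrosine kinases that rose was 3.

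Genes switched on by ERK were lower. Of 15 tested, 10 fell and 1 rose (3 rose by DESeq2; median -0.95). DUSP6, the phosphatase that ERK induces against itself, fell from 816, 729 and 718 to 97.5, 86 and 64.2 (-3.19 ± 0.19, adjusted p = 1.1e-06). ETV4, an ETS factor downstream of ERK, fell from 2692, 2498 and 2976 to 259, 299 and 221 (-3.39 ± 0.14, adjusted p = 1.1e-07), and its relative ETV5 from 1059.6, 1117 and 1064 to 170.1, 204 and 201 (-2.49 ± 0.14, adjusted p = 7.2e-07). In each case all INC424 libraries were under all naive ones. The members SPRY1, SPRY2, SPRED1 and SPRED2, inhibitors of the pathway, fell with log2 differences from -2.31 for SPRED1 to -0.82 for SPRY1. EPHA4, an ephrin receptor, was the one that rose, from 12.9, 15.1 and 17.3 to 156, 207 and 219 (3.59 ± 0.28, adjusted p = 6.6e-06). CCND1, cyclin D1, varied widely in the persistent line, with 163, 396 and 88.7 in the INC424 libraries and 606, 589.8 and 500.4 in the naive libraries (-1.65 ± 0.42, adjusted p = 0.013; adjusted p = 0.069 by DESeq2 and 0.16 in the fit of all 24 libraries). Against DMSO, where DUSP6 stood at 115, 102 and 131 and ETV5 at 217, 213 and 195, neither passed (-0.50 ± 0.23, adjusted p = 0.089 and -0.12 ± 0.16, adjusted p = 0.55), while ETV4 did (-2.39 ± 0.15, adjusted p = 3.1e-07); 5 of the 15 were lower against DMSO and 1 higher.

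Immediate early genes, the first transcribed after growth factor stimulation, included 8 that fell and 1 that rose of 17 (median -0.84). EGR1 fell from 7725, 7169 and 7881 to 215, 217 and 143 (-5.32 ± 0.16, adjusted p = 1.6e-08). EGR2, a relative, fell from 163, 181 and 151 to 1.13, 0.852 and 6.34 (-5.75 ± 0.53, adjusted p = 2.2e-05), and EGR3 from 136, 142 and 155 to 7.94, 5.11 and 10.3 (-4.09 ± 0.34, adjusted p = 1.1e-05). FOSL2, an AP-1 subunit, fell from 4822, 4961 and 5452 to 988, 909 and 963 (-2.41 ± 0.10, adjusted p = 1.2e-07). These 4 were also lower than with DMSO, where EGR1 stood at 833, 1020.2 and 1119.7 (-2.38 ± 0.18, adjusted p = 1.3e-06). JUN was the one that rose, from 48.1, 59.3 and 27.5 to 192, 175 and 233 (2.18 ± 0.30, adjusted p = 0.00036).

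Genes repressed by PI3K through FOXO factors split against naive cells, 5 higher and 8 lower of 19. S1PR1, a lymphocyte migration receptor, fell from 921, 1005 and 1019 to 117, 101 and 122 (-3.11 ± 0.15, adjusted p = 2.8e-07). IRS2, an adaptor of insulin signalling, fell from 735, 739 and 677 to 482, 343 and 481 (-0.73 ± 0.16, adjusted p = 0.0058), and TSC22D3, a glucocorticoid- and FOXO-induced gene, rose from 580.2, 495 and 619.6 to 895, 1038 and 899 (0.74 ± 0.14, adjusted p = 0.0021; 0.31 in the fit of all 24 libraries). Against DMSO 16 of the 19 were higher and 2 lower, with a median of 1.25. Of 16 adaptors and phosphatases that restrain JAK2, 2 rose and 6 fell. PTPN1, a phosphatase of JAK2, fell from 12319.8, 11876 and 12476 to 6042, 5116 and 5589.9 (-1.13 ± 0.10, adjusted p = 1.8e-05), PTPRC (CD45) from 14190.4, 12333 and 11925 to 5568, 6130.0 and 5427 (-1.16 ± 0.11, adjusted p = 2.3e-05), and PTPRJ, a phosphatase of platelets, rose from 482, 394 and 450.5 to 954, 869 and 791 (0.98 ± 0.14, adjusted p = 0.00042).

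The BCL2 family had 5 members higher and 5 lower of 15, with 1 higher and 3 lower without INC424 library 1, 2 higher without INC424 library 3 and 3 higher without naive library 3. MCL1, a short-lived survival protein, fell from 11489, 10238 and 10765 to 5677, 5806 and 5109.8 (-0.97 ± 0.10, adjusted p = 5.7e-05) but stood at 6245, 6035 and 5722 with DMSO (-0.12 ± 0.08, adjusted p = 0.25). BCL2 itself fell from 284, 156 and 166 to 51, 76.6 and 52.3 (-1.71 ± 0.29, adjusted p = 0.0013), and BCL2A1, a survival relative, from 65.6, 73.3 and 77.5 to 6.8, 7.66 and 2.38 (-3.58 ± 0.45, adjusted p = 0.00019). BBC3, which encodes the death-promoting PUMA, rose from 536, 829 and 817 to 1421, 1006 and 1338 (0.80 ± 0.19, adjusted p = 0.01; 0.05, unrounded just above the threshold, without INC424 library 1).

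The red cell programme was higher in the persistent line. All 10 globin-list genes tested rose (median 2.60), and the globins took 1.16% to 1.37% of the signal in the INC424 libraries and 0.139% to 0.181% in the naive ones. The rise was not particular to this line. Globins took 0.616% to 0.687% in naive cells after 48 h of INC424 and 1.08% to 1.26% in the BMS911543 line. They took 0.771% to 1.20% in the SAR302503 line and 0.683% and 0.637% in CYT387 libraries 1 and 3. HBG2, a fetal gamma chain, had normalised counts of 274319, 267415 and 318247 in the INC424 libraries and 42272, 43874 and 34419.8 in the naive libraries (2.84 ± 0.14, adjusted p = 3.7e-07). HBE1, the embryonic epsilon chain, stood at 22127, 25798 and 25783 in the INC424 libraries and 607, 879.9 and 584 in the naive libraries (5.17 ± 0.16, adjusted p = 1.5e-08), and HBA2, an adult alpha chain, at 7566, 4500.2 and 7284 in the INC424 libraries and 220.4, 198 and 170.2 in the naive libraries (5.001 ± 0.20, adjusted p = 7.8e-08). No library of one group reached the other for these 3. HBG1 and HBA1, near-identical copies of HBG2 and HBA2 between which the counting could have split reads, differed by 2.29 and 4.63. The embryonic zeta chain gene HBZ rose from 2.34, 5.39 and 0 to 96.4, 64.7 and 86.4 (4.89 ± 0.65, adjusted p = 0.00026). HBZ passed the filter only through the INC424 libraries, where it is high, so its rise adds no independent support to the count of 10. HBB, the adult beta chain, was low in all, at 129, 99.6 and 105 in the INC424 libraries and 57.4, 46.4 and 82.5 in the naive libraries (0.86 ± 0.28, adjusted p = 0.037), and missed the threshold when any 1 of the 3 INC424 libraries or naive library 1 or 2 was left out (adjusted p 0.051 to 0.14), with the replicate number as a block (0.052) and in the fit of all 24 libraries (0.30). AHSP, the chaperone of free alpha chains, and the minor chains HBD and HBQ1 rose by 2.37, 1.83 and 2.29.

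The delta globin gene HBD, a called member for which the RefSeq table had an entry, is shown for the motifs of erythroid promoters: AGATAA and TGATAA, bound by GATA1, which share the core GATAA, and CCAAT, each searched on both strands. Matches are in capitals in the 250 bases before its start, on the minus strand of GRCh38.p14; HBA1, HBA2, HBZ, HBQ1, HBB, HBG1, HBG2, HBE1 and AHSP had no entry.
HBD (chr11:5234484-5234733): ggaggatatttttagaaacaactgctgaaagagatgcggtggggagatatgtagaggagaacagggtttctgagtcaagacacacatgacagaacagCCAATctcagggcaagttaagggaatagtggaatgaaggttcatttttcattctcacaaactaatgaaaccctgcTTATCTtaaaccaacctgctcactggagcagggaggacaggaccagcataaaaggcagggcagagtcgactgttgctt
It held 1 CCAAT and 1 AGATAA, the latter on the reverse strand, and 0 TGATAA. The shares of all 35116 promoters with these letters were 32.0% for CCAAT, 9.17% for AGATAA and 6.66% for TGATAA.

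Haem synthesis genes rose with the globins in part: 10 of 22 haem and iron genes were higher and 0 lower (median 0.27). ALAS2, the erythroid first enzyme of haem synthesis, rose from 745, 823 and 785 to 3569, 3168 and 3294 (2.09 ± 0.11, adjusted p = 3.9e-07). UROD, the fifth enzyme, rose from 8048, 9301 and 10522 to 22820.3, 22821 and 22857 (1.31 ± 0.12, adjusted p = 1.7e-05), and FECH, which inserts the iron, from 917, 777 and 806 to 1966, 1798 and 2045 (1.22 ± 0.12, adjusted p = 3e-05). UROD lies in a run of neighbouring genes on chromosome 1, given at the end, where 27 of 31 were called higher. ALAD and PPOX, other enzymes of the pathway, rose too. TFRC, the transferrin receptor, did not pass (0.08, adjusted p = 0.65).

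Red cell membrane and surface genes rose for 19 of 25 and fell for 2 (median 0.84). SLC4A1, the anion exchanger band 3, rose from 105, 155 and 179 to 1439, 1329 and 1411 (3.27 ± 0.19, adjusted p = 9.7e-07). SPTB, the beta spectrin of the membrane skeleton, rose from 1529.6, 1609.9 and 1688 to 11312, 8787 and 11508 (2.70 ± 0.12, adjusted p = 1.8e-07). GYPB rose from 59.8, 29.1 and 48.9 to 701, 668 and 546 (3.82 ± 0.27, adjusted p = 3e-06) and GYPE from 315, 301 and 348 to 1588, 1898 and 1621 (2.40 ± 0.13, adjusted p = 6.3e-07). Glycophorin genes are similar in sequence and can share reads. The 2 that fell were GYPC (-0.83) and the chemokine-binding antigen DARC (-1.21).

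**Figure D4:**
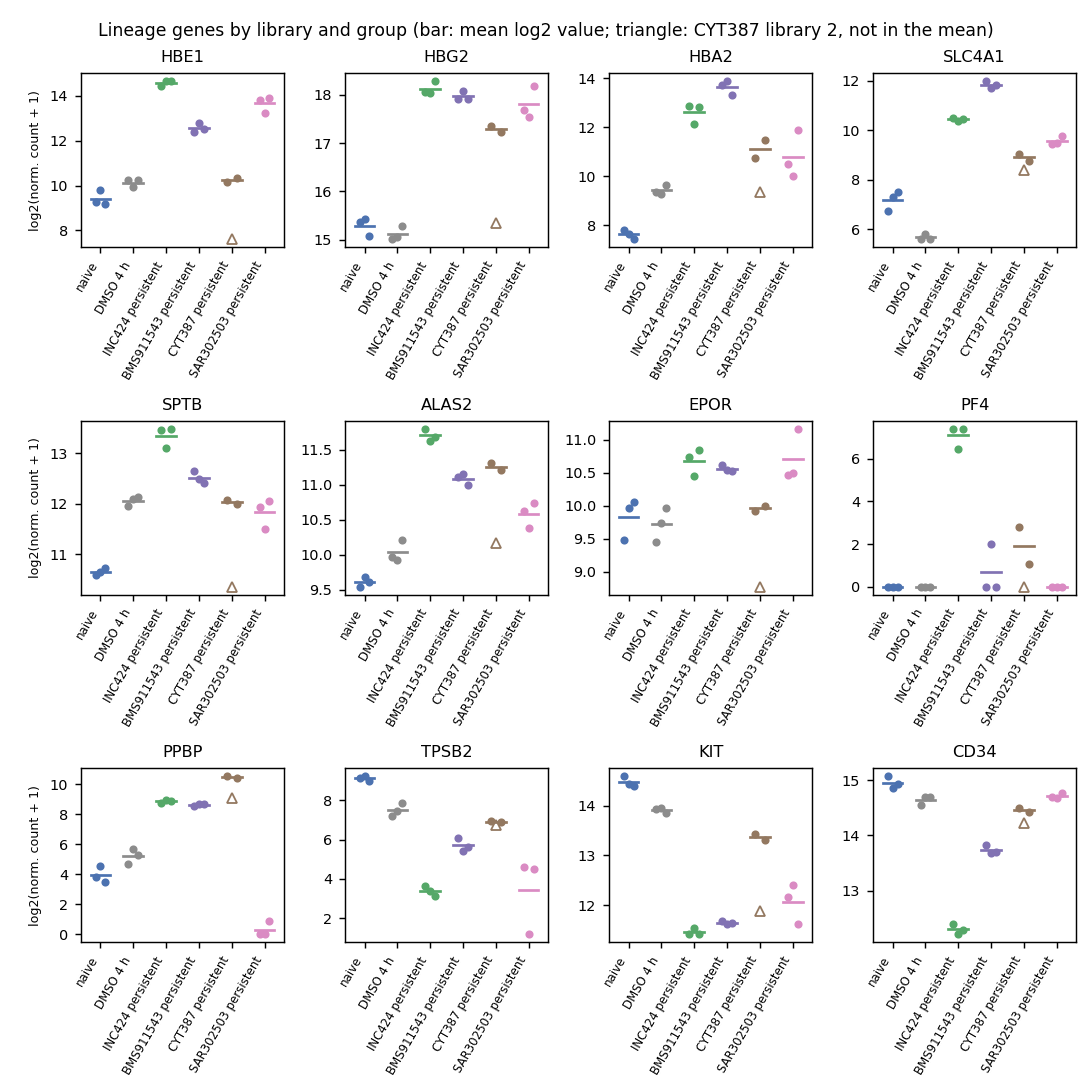
Log2(normalised count + 1) of 12 lineage genes in naive cells, DMSO cells and the 4 persistent lines, 1 point per library and a bar at each mean, each panel with its own axis that does not start at 0; the open triangle is CYT387 library 2, which is in no mean. HBE1, SPTB and PF4 are highest in the INC424 line and CD34 lowest.

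Megakaryocyte and platelet genes moved both ways, 14 higher and 8 lower of 26 (5 lower in the fit of all 24 libraries) (median 0.43, also with PF4 and TREML1 set to their bounds). Besides PF4, the platelet basic protein gene PPBP rose from 12.9, 22.6 and 10.2 to 432, 503 and 463 (4.92 ± 0.30, adjusted p = 1.2e-06), and TREML1, a receptor stored in platelet granules, was at 27.2, 17 and 39.6 with no naive read, at least 26.1-fold higher. TUBB1, the platelet beta tubulin, THBS1, thrombospondin, and CLEC1B, the receptor CLEC-2, rose by 2.57, 4.13 and 2.87. GP9, of the von Willebrand factor receptor, rose from 273, 408 and 486 to 1025, 1299 and 1055. F13A1, the factor XIII A chain, fell from 581, 621 and 569.7 to 24.9, 2.55 and 7.92 (-5.98 ± 0.57, adjusted p = 2.7e-05). ITGA2B, though still high, fell (-0.64 ± 0.13, adjusted p = 0.0041), and VWF, the von Willebrand factor, did not pass (0.07).

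Transcription factors of these lineages did not move as one group, 6 higher and 9 lower of 24. GATA1, the master factor of both lineages, was at 8699, 5869 and 7593 in the INC424 libraries and 7328, 8189 and 7855 in the naive libraries and overlapped (-0.09 ± 0.14, adjusted p = 0.65). ZFPM1 (FOG1), its cofactor, rose from 191, 209 and 224 to 477, 427 and 532 (1.20 ± 0.16, adjusted p = 0.00028). GATA2, the progenitor factor, fell from 27656, 35787 and 35644 to 15359.5, 11433 and 15391 (-1.24 ± 0.15, adjusted p = 0.00016). MYB, a progenitor factor, fell from 10783, 10231 and 9895 to 3455, 3504 and 3350.0 (-1.58 ± 0.09, adjusted p = 1e-06), and SPI1 (PU.1), the myeloid factor, from 3023, 2946 and 3216 to 604, 497 and 555 (-2.47 ± 0.12, adjusted p = 2.3e-07). For these last 3 every INC424 library was under every naive one. MECOM, TAL1, RUNX1, KLF3 and MAFG were the other 5 that rose, by 0.51 for KLF3 to 1.03 for MECOM.

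Most granule and myeloid surface genes were lower. Of 14 granule genes, 10 fell and 0 rose (median -1.79). TPSB2, a mast cell tryptase, fell from 557, 601 and 509 to 11.3, 9.37 and 7.92 (-5.73 ± 0.25, adjusted p = 1.2e-07); its near-identical copy TPSAB1 fell too (-6.08). The eosinophil granule gene PRG2 fell from 1623, 1517 and 1699 to 3.4, 0 and 10.3 (-8.78 ± 0.68, adjusted p = 6.2e-06). Of 12 monocyte and myeloid surface genes, 10 fell and 0 rose (median -1.77). CD33, a myeloid sialic acid receptor, fell from 6136, 6603 and 6077 to 964, 872 and 909.6 (-2.78 ± 0.10, adjusted p = 4.5e-08), and CD300A, an inhibitory receptor, from 3808, 3617 and 3943 to 396, 368 and 361 (-3.33 ± 0.11, adjusted p = 2.4e-08). TLR4, the endotoxin receptor, fell from 107, 58.2 and 71.3 to 1.13, 2.55 and 1.58 (-4.84 ± 0.46, adjusted p = 2.8e-05). Of 16 stem and progenitor genes, 3 rose and 7 fell against naive cells (median -0.22), whereas 9 were higher and 6 lower against DMSO (median 0.33). CD34 fell from 34419, 29505 and 31088 to 5421, 4734 and 5006 (-2.65 ± 0.11, adjusted p = 8.7e-08), and CD44, an adhesion receptor, from 12182, 11162 and 11000.4 to 1491, 2382 and 1410.3 (-2.74 ± 0.18, adjusted p = 1.8e-06).

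Most genes of MHC class II fell. Of 14 genes of MHC class II, 11 fell and 1, HLA-DOB, rose (median -2.00); against DMSO 10 were lower and 1 higher (median -1.29). CIITA, the master activator of the class, fell from 568, 686 and 699 to 44.2, 65.6 and 69.7 (-3.44 ± 0.22, adjusted p = 1.5e-06). HLA-DRA fell from 2699, 2186 and 2073 to 497, 360.2 and 560.2 (-2.31 ± 0.18, adjusted p = 5.6e-06), and CD74, the invariant chain, from 7687, 7663 and 7565 to 1335, 1106 and 1489 (-2.55 ± 0.12, adjusted p = 2.3e-07). After acute exposure CIITA lay within the range of the naive libraries, at 610.4, 627 and 633 after 48 h of INC424, beside 474, 674 and 667 with DMSO. Of 16 genes of MHC class I, 10 fell and 0 rose (median -0.52); without INC424 library 1 the count was 6. Against DMSO 5 of the 16 were higher and 1 lower (median 0.04). HLA-E fell from 31566, 30083 and 34412 to 14617, 14442 and 14557 (-1.14 ± 0.10, adjusted p = 1.9e-05) yet was above DMSO (0.41 ± 0.08, adjusted p = 0.0017), and HLA-C, which fell (-0.72), did not pass against DMSO (adjusted p = 0.98). HLA genes are similar to each other, so reads could have been split among them.

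Interferon-stimulated genes moved in opposite directions, 8 higher and 10 lower of 29, and 11 higher and 9 lower against DMSO. IFIT1, which binds foreign RNA, rose from 62.1, 83 and 69.3 to 419.6, 534 and 428 (2.67 ± 0.20, adjusted p = 4.7e-06), and IFIT2 from 185, 202 and 128 to 746, 818 and 754 (2.19 ± 0.19, adjusted p = 1.3e-05). RSAD2, IFIT3 and IFIT5 rose too. BST2, tetherin, fell from 3808, 3067 and 2767 to 553, 459.8 and 615 (-2.56 ± 0.15, adjusted p = 1.1e-06), and IFI27 from 87.9, 154 and 139 to 30.6, 21.3 and 23 (-2.28 ± 0.31, adjusted p = 0.00033). GBP1, GBP2, GBP4 and IRF1, genes induced mainly by interferon gamma, fell, with log2 differences of -1.07, -1.48, -1.77 and -1.34. Of 19 NF-kB genes 6 rose and 3 fell, and 3 rose without INC424 library 1 or naive library 2. TNFAIP3, its feedback inhibitor, rose from 151, 121 and 108 to 338, 396 and 382 (1.56 ± 0.19, adjusted p = 0.00014), and IL1B fell from 8959, 7195 and 6992 to 2845, 2882 and 3300.1 (-1.35 ± 0.12, adjusted p = 2e-05) but did not pass against DMSO (-0.03 ± 0.09, adjusted p = 0.82).

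Cell cycle genes were higher than in naive cells. Of 36 genes of S phase, 24 rose and 0 fell (median 0.58), and of 32 genes of G2 and M phase, 25 rose and 0 fell (median 0.72). E2F2, an activator of S phase genes, rose from 865, 830.3 and 802 to 3259, 2844 and 2919 (1.85 ± 0.11, adjusted p = 9.2e-07). CDC20, which starts anaphase, rose from 2805, 2604 and 2303 to 6681, 6277 and 8221 (1.45 ± 0.13, adjusted p = 1.6e-05), and PRC1, a spindle midzone protein, from 4029.6, 3912 and 3988 to 9601, 9994 and 9438 (1.28 ± 0.09, adjusted p = 3.9e-06). The groups were apart for these 3, which were named for their large differences, as they were for 46.6% of all genes tested. Against DMSO the mitotic genes were again higher (27 of 32, 0 lower), whereas the S phase genes were 8 higher and 9 lower; RRM2, of ribonucleotide reductase, was higher than naive (0.85) and lower than DMSO (-0.34 ± 0.08, adjusted p = 0.0033). Of 13 D cyclins, their kinases and CDK inhibitors, 3 rose and 4 fell (23.1% and 30.8%, beside 14.9% and 17.3% of all genes tested). CDKN2C, the CDK inhibitor p18, rose from 1734, 1535 and 1298 to 3112, 2408 and 3308 (0.95 ± 0.15, adjusted p = 0.00086), and CDKN1C, p57, fell from 86.7, 81.9 and 117 to 23.8, 30.7 and 28.5 (-1.74 ± 0.29, adjusted p = 0.0011). Of 11 replication-dependent histone genes, whose transcripts mostly lack poly(A), 0 rose and 3 fell.

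Glycolysis and hypoxia genes fell for 17 of 32 and rose for 5 against naive cells (median -0.43), whereas 12 were lower and 11 higher against DMSO (median -0.06). CA9, a carbonic anhydrase induced by hypoxia, fell from 318, 254 and 290.4 to 1.13, 1.7 and 0, with 3 reads over the INC424 libraries and a ratio of 317-fold (95% interval 108 to 1541). PFKFB4, a regulator of glycolysis, fell from 2603, 2744 and 3036 to 479.7, 462 and 358 (-2.70 ± 0.14, adjusted p = 4.1e-07), and BNIP3, a mitophagy receptor, from 1314, 803 and 905 to 109, 175 and 172 (-2.72 ± 0.24, adjusted p = 1.4e-05), although BNIP3 stood at 74.9, 70.6 and 56.9 with DMSO, below the persistent line. EGLN3, an oxygen sensor, rose from 5.86, 12.9 and 2.04 to 111, 93.7 and 99 (3.95 ± 0.52, adjusted p = 0.00026). Nuclear genes of the respiratory chain rose for 15 of 31 and fell for 1, and 9 rose without INC424 library 3; COX6A1, a subunit of cytochrome oxidase, rose from 1374, 1547 and 1958 to 3093, 3056 and 2886 (0.90 ± 0.14, adjusted p = 0.00059). Of the 12 mitochondrially encoded genes, limma called 0 and none was under an unadjusted p of 0.05; edgeR called 0 and DESeq2 1, and limma called 2 higher without INC424 library 3 and 3 without naive library 1.

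Amino acid response genes, driven by ATF4, rose for 13 of 29 and fell for 5 (3 fell in the fit of all 24 libraries; median 0.30). CHAC1, which degrades glutathione, rose from 905, 924 and 981 to 2753, 2182 and 3071 (1.496 ± 0.14, adjusted p = 2.1e-05). SLC7A5, the leucine transporter LAT1, rose from 5524, 5782 and 5918 to 14349, 15009.6 and 13961 (1.33 ± 0.09, adjusted p = 3.6e-06), and VLDLR, a lipoprotein receptor, from 63.3, 89.5 and 99.9 to 255, 191 and 170.4 (1.28 ± 0.25, adjusted p = 0.003; 0.098 in the fit of all 24 libraries). STC2, a secreted glycoprotein, fell from 339, 286 and 303 to 24.9, 50.2 and 24.6 (-3.26 ± 0.30, adjusted p = 2e-05). Against DMSO, 26 of the 29 were higher and 1 lower (median 1.26): CHAC1 stood at 23.6, 39.4 and 49 there. Endoplasmic reticulum chaperones and stress genes fell for 14 of 22, with 0 higher (9 lower without INC424 library 1); against DMSO 8 were lower and 4 higher. P4HB, protein disulfide isomerase, fell from 68393, 59631 and 64166 to 32203, 29259.6 and 32381 (-1.03 ± 0.11, adjusted p = 7.4e-05) and did not pass against DMSO (-0.12 ± 0.09, adjusted p = 0.26). Of 31 ribosome biogenesis genes, 3 rose and 3 fell against naive cells, with 1 lower without INC424 library 1 or naive library 2 and 7 higher without naive library 1. Against DMSO 23 of the 31 were lower.

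Cholesterol synthesis had 5 higher and 5 lower of 24 (1 higher and 3 lower without INC424 library 1 or 3, 1 higher without naive library 2, 3 and 3 without naive library 3). That is 20.8% each way, near the shares of all genes tested (14.9% higher and 17.3% lower). MVD, an enzyme of the mevalonate pathway, rose from 280.1, 304 and 358 to 659, 553 and 676 (1.00 ± 0.16, adjusted p = 0.00074; adjusted p = 0.051 in the fit of all 24 libraries). Of 22 p53 targets, 6 rose and 7 fell (4 fell without naive library 3); TNFRSF10B, a death receptor, fell from 1612, 2053 and 2183 to 553, 513 and 479 (-1.91 ± 0.14, adjusted p = 4.6e-06) and did not pass against DMSO (0.13 ± 0.12, adjusted p = 0.39). Of 20 NRF2 targets 6 rose and 1 fell (3 rose without INC424 library 1 or naive library 3), and of 21 heat shock genes 4 rose and 1 fell (2 rose without INC424 library 3, 7 without naive library 1). Of 13 ABC transporters 3 rose and 5 fell, and 3 fell without INC424 library 1, naive library 2 or naive library 3. ABCB1, the multidrug pump P-glycoprotein, rose from 1234, 979 and 1018 to 2177, 2095 and 2132 (0.99 ± 0.12, adjusted p = 0.00014), with no overlap. ABCG2, another multidrug pump, rose from 75, 41 and 28.5 to 80.5, 111 and 105 (1.12 ± 0.36, adjusted p = 0.036), a call lost when any 1 INC424 library or naive library 2 or 3 was left out (adjusted p 0.055 to 0.11). Of 4 drug metabolism genes 2 rose and 1 fell. AHR, the dioxin receptor, fell from 702, 595 and 661 to 135, 204 and 158 (-1.99 ± 0.18, adjusted p = 2.2e-05), and CYP1A1, a drug-metabolising enzyme and AHR target, rose from 59.8, 69 and 101 to 187, 154 and 148 (1.11 ± 0.25, adjusted p = 0.0071). Of 11 lymphoid markers 3 rose and 7 fell, and of 6 stromal, vessel and macrophage markers 2 rose and 1 fell; LUM, a matrix proteoglycan, was at 45.4, 79.2 and 62.6 with 1 naive read, a ratio of 177-fold (95% interval 31.3 to 7004).

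The INC424 line was set against the mean of the BMS911543, CYT387 and SAR302503 lines in a fit of 11 libraries that left out CYT387 library 2, whose squamous markers took 0.626% of the signal. SAR302503 library 3, kept in the fit, had the next highest share of them, 0.119%. In that test 3014 genes were called (17.2%), 1360 higher in the INC424 line (7.76%) and 1654 lower (9.44%). The counts depended on single libraries: 739 higher and 1042 lower without INC424 library 3, 751 and 1077 without INC424 library 1, and 2548 and 2682 without SAR302503 library 3. Globin genes were higher in the INC424 line for 4 of 10 (2 without INC424 library 1, 8 without SAR302503 library 3); HBE1, at 5321, 7129 and 5863 in the BMS911543 line, 1151 and 1310.1 in CYT387 libraries 1 and 3 and 14532, 9722 and 15432 in the SAR302503 line, was one of them (2.42 ± 0.14, adjusted p = 1.4e-07), whereas HBG2 (0.44 ± 0.14, adjusted p = 0.042) and HBA2 (0.77 ± 0.31, adjusted p = 0.12) had smaller differences. MHC class II genes were lower for 11 of 14 (median -1.47), and for 5 against the BMS911543 and SAR302503 lines alone. CIITA stood at 836, 779 and 646 in the BMS911543 line and 1886 and 2014 in the CYT387 libraries but at 38, 50.8 and 51.1 in the SAR302503 line, close to the INC424 values (-2.78 ± 0.18, adjusted p = 3.3e-07). CD34 was lower than in the other lines (-2.00 ± 0.08, adjusted p = 8e-09), at 14553, 13096 and 13334, 23012 and 22044, and 26492, 26307 and 27878 there. Amino acid response genes were higher for 25 of 29 (median 1.01), and glycolysis and hypoxia genes lower for 21 of 32 and higher for 2 (median -0.61). S phase genes were higher for 19 of 36, with 8 to 22 when a library was left out, the fewest without INC424 library 3. G2 and M genes were higher for 19 of 32 and lower for 1, and 12 were higher without INC424 library 3. STAT target genes were lower for 6 of 15, for 3 without INC424 library 2, and for 2 against the BMS911543 and SAR302503 lines alone, where 2 were higher. SOCS3 stood at 7039 and 6539.9 in the CYT387 libraries and 7326, 7277 and 10599.6 in the SAR302503 line but 466, 487 and 431 in the BMS911543 line, below the INC424 values (-1.49 ± 0.12, adjusted p = 2.1e-06).

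A rule chosen after the values were seen asked for at least 50 normalised counts in every INC424 library and at least 10 times the value of each of 20 other libraries, all but CYT387 library 2, and 13 genes met it. They are COL11A1, KDR, CLCA1, EPB41L3, HENMT1, CRHBP, ROR1, GABRQ, DGKB, PF4, CALN1, ARMCX4 and SLC34A2. KDR stood at 2158, 2002 and 2051, and the highest of the 20 other libraries was a naive one at 169. CLCA1, a secreted protein of mucous cells, stood at 2008, 1796 and 2094 in the INC424 libraries and 68, 104 and 65.2 in the naive libraries, and HENMT1, a methyltransferase of small RNAs in germ cells, at 566, 640.3 and 615 in the INC424 libraries and 7.03, 14 and 9.17 in the naive libraries. ROR1, a receptor of the WNT family of ligands, was at 169, 155 and 159 in the INC424 libraries and 3.52, 0 and 4.08 in the naive libraries. In CYT387 library 2, 6 of the 13 reached 50, with KDR at 3362 and EPB41L3 at 284, and 4 had 0 (COL11A1, CLCA1, CRHBP and PF4). The converse rule, every one of the 20 at 50 or more and at least 10 times every INC424 library, was met by 0 genes.

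**Figure D5:**
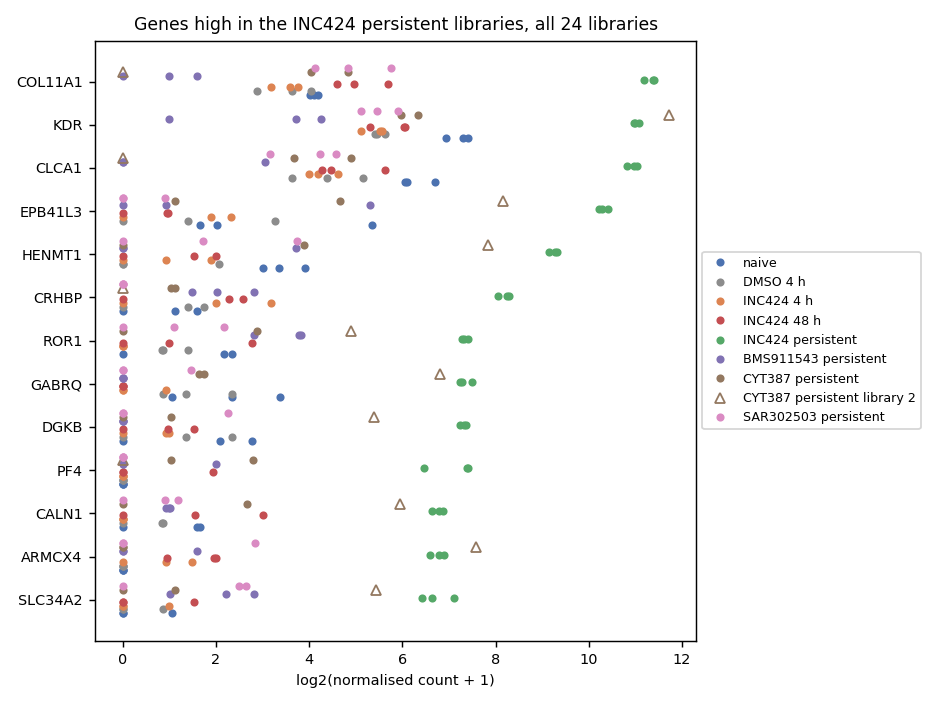
Log2(normalised count + 1) of the 13 genes that met that rule, in all 24 libraries, coloured by group, with CYT387 library 2 as an open triangle. The 3 INC424 persistent points lie to the right of all filled points of other groups; the triangle overlaps or passes them for KDR and ARMCX4 and is at 0 for 4 genes.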

How the data were processed

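Poly(A) RNA of SET2 cells was sequenced on an Ion Proton. The deposited signal values are normalised counts: each gene's reads over a size factor of its library. The submitters' processing notes list the tools DESeq 1.10.1, HTSeq 0.5.3p3 and BWA 0.7.5.1 and, as builds, GRCh37 and hg19, without their roles. In each library 100% of values were whole multiples of its smallest value (tolerance 0.01), so reads were recovered by dividing by it, for depth, floors and the alternative count tests. Intervals and floors cover counting error only.

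Log2(normalised count + 1) was fitted with limma 3.58.1 (trend, two-sided, R 4.3.3) on the 6 libraries of a comparison, or on 11 for the persistent lines, with Benjamini-Hochberg adjustment over all 17522 genes and a threshold of 0.05; the same genes were tested throughout. Log2 differences are on that scale and understate changes of low genes. The ± beside them is limma's moderated standard error, whose variance is drawn towards that of genes of like abundance. Their p-values and 95% intervals add limma's prior degrees of freedom to the residual ones, which are 4 for the 6-library fits. On simulated libraries of 17265 genes the fit recovered 38% of genes changed 1.5-fold and 100% of those changed 2-fold or more, and called 11 of 17065 unchanged genes. The simulation gave every gene the same added spread between replicates and placed changes only in genes with a mean above 50. It therefore checks the fit, and cannot give the share of real 2-fold changes found, least of all for low or variable genes.

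In lists where limma called no gene in a direction, at most 1 gene was under an unadjusted p of 0.05 in it.

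Named genes were the 10 largest rises and falls (mean of at least 50, groups apart), up to 4 called members per list (2 of the highest mean where none was called) and fixed pathway genes. Results of some of these genes are not reported here. Other members are named from the lists after their values were seen. The members and the 40 lists were chosen with earlier results of these data known. Of 860 list entries, 835 were in the table and 767 were tested. A gene under 10 in all libraries of 1 group passed the filter only through the other group. List counts that hold such genes are in part fixed by the filter. INC424 library 3 was run again for more reads, per the labels; no naive library was. Alternatives were another pseudocount (0.5, 10), filter (none, 50), scaling, spread model, count tests with edgeR 4.0.16 and DESeq2 1.42.0, fits of more libraries, a replicate block and each library left out. Replicates differed by more than sampling noise, so none were merged. Antisense and overlapping genes were not separated here, since strand use in counting is not given in the sources used here.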

Additional observations from a re-analysis of the deposited data

Results flagged for a closer look

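For 13 named genes the INC424 line and the mean of the other 3 persistent lines lay on opposite sides of naive cells, and the test of the difference between the lines passed (limma, 11 libraries, adjusted over all genes). The differences, INC424 line minus the other lines on the log2 scale, were 8.54 for EPB41L3, 7.91 for COL11A1 and 6.14 for KDR, which were high in the INC424 line and, for KDR and EPB41L3, also present in CYT387 library 2, which is not in this test. For EPB41L3 the place of the other lines below naive rests largely on naive library 1, at 39.9, beside 2.16 and 3.06 in naive libraries 2 and 3. BMS911543 library 3 (38.6) and CYT387 library 3 (24.4) lay above naive libraries 2 and 3. For COL11A1 the BMS911543 line, at 0, 1.01 and 2.03, was the line below naive; CYT387 libraries 1 and 3 (15.4 and 27.6) and the SAR302503 line (27.6, 16.5 and 52.8) averaged above it. NCAM1, a neural adhesion molecule, differed by 3.42, with normalised counts of 595, 556 and 518 in the INC424 line, 139, 118 and 129 in naive cells and 58.7, 45.7 and 35.2 in the SAR302503 line. VLDLR differed by 2.91 and CHAC1 by 2.53, both on the amino acid response list. CHAC1 stood at 132, 123 and 97.6 in the BMS911543 line, 536, 581 and 1044 in the SAR302503 line and 1254 and 1122 in CYT387 libraries 1 and 3, where it was above naive. VLDLR stood at 245 and 238 in those CYT387 libraries, also above naive, and at 4.56, 20.1 and 3.05 in the BMS911543 line. HBB differed by 1.46, TSC22D3 by 1.12, BBC3 by 1.02 and STAT5A by 0.40. DUSP3, a phosphatase, differed by -0.86, IRS2 by -0.77 and POLR1B, a subunit of RNA polymerase I, by -0.68, with the INC424 line lower; for these 3 and STAT5A the other lines lay within 0.20 of naive on the log2 scale.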

How the results depend on the processing

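Against naive cells, every alternative kept both counts within 1.5 times: 1744 to 3146 higher and 2364 to 3434 lower when a library was left out, 2588 and 3032 by edgeR, 2740 and 3149 by DESeq2, 2945 and 2796 with upper-quartile scaling, and 2001 and 2502 in the fit of all 24 libraries. Against DMSO, 3932 to 4572 were higher and 3414 to 4370 lower. Against the other lines, the counts were 520 and 764 with CYT387 library 2, and 739 to 2548 higher and 1042 to 2682 lower with a library left out; the cause was not tested. Replicate numbers are shared by the groups but did not pair the libraries: same-number deviations correlated at -0.067, 0.116 and 0.0067. With the replicate block, 2271 were higher and 2698 lower than naive, 4601 and 4219 against DMSO, and 1458 and 1724 against the other lines, and HBB, PPAN and STAT5A lost their calls (adjusted p 0.052, 0.058 and 0.069). Of 185 named genes, 174 were called; over their alternatives 3399 values kept their call, 98 lost it, 7 gained it and none changed direction. The fit of 24 libraries ended 22 calls, among them EGFR, TP63, VLDLR and TSC22D3. The median over all genes stayed between 0.003 and 0.061 under all settings. Depth limits genes of few reads: a group with 0 reads gives a bound and one with 1 to 3 reads a ratio, while fitted differences resting on somewhat more reads, such as those of TLR4 (6 reads in the INC424 libraries) and PRG2 (16), depend on the pseudocount.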

Other observations

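The SIGLEC and MS4A families of immune receptor genes, singled out after their values were seen, were low in the INC424 line. Of 12 sialic acid receptor genes tested (the SIGLEC genes and CD33), 10 fell and 0 rose, with a median log2 difference of -3.87. SIGLEC12 had mean normalised counts of 75.8 ± 14.4 against 6140.5 ± 426 in naive cells (mean ± SD, n = 3 each), and SIGLEC10 122 ± 15.4 against 2439.8 ± 208; SIGLEC11 and SIGLEC16 were not called (0.53 and -0.38). All 6 MS4A genes tested fell, MS4A6A with 30.7 ± 11.5 against 2653 ± 149 and MS4A4A with 15.3 ± 17 against 1776 ± 168. MS4A3, the most abundant, fell less, with 7826 ± 681 against 17277 ± 3128, and its DMSO mean was 7625.

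ERP44, a chaperone of the secretory pathway, INVS, a ciliary gene, and HDHD3 had reads in the INC424 libraries and hardly any in naive cells. ERP44 was at 284, 330.4 and 242 in the INC424 libraries and 10.5, 8.63 and 9.17 in the naive libraries, INVS at 110.0, 131 and 90.3 in the INC424 libraries and 3.52, 4.31 and 0 in the naive libraries and HDHD3 at 138, 208 and 151 in the INC424 libraries and 1.17, 5.39 and 9.17 in the naive libraries. Outside the INC424 line the highest value was in CYT387 library 2, with 711, 300.2 and 686; the highest of the 20 other libraries was SAR302503 library 3 for each, with 68.7, 29.1 and 33.5. MTAP was at 0, 11.9 and 0 in naive cells, 549 in CYT387 library 2 and 6.8, 69.8 and 16.6 in the INC424 libraries. Unlike the other 3 genes, MTAP was higher in SAR302503 library 3, at 93.3, than in any INC424 library, and SAR302503 library 1 had 32.2. All were picked after their values were seen. Some further libraries held reads of these genes too. ERP44 and MTAP were at 34.2 and 49.7 in DMSO library 1 and at 34.0 and 20.0 in INC424 48 h library 3. The identity of the libraries was not checked from the reads and remains unverified, and the cause of these values was not tested.

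Genes were ordered along each chromosome by the RefSeq annotation of GRCh38.p14, using 11373 of 12122 genes with a mean of at least 100. Over 10683 windows of 31 consecutive genes, the highest median log2 difference against naive was 0.78, on chromosome 1 from EIF2B3 to CDKN2C, where all 31 genes lay above 0 and 27 were called higher and 0 lower. The 3 INC424 libraries had medians of 0.76, 0.75 and 0.79 there, and the DMSO, 4 h and 48 h groups -0.07, -0.02 and 0.01; the BMS911543, CYT387 and SAR302503 lines had 0.45, 0.11 and 0.22. The lowest was -0.82, on chromosome 19 from VRK3 to ZNF841, a stretch that holds SIGLEC genes, where those 3 lines had -0.47, -0.20 and -0.47 and DMSO -0.21. The chromosome 1 window holds UROD, TAL1 and CDKN2C, named above. On chromosome 16, a window from HSDL1 to TRAPPC2L (median 0.55, 20 called higher and 1 lower) holds ZFPM1, SLC7A5 and MVD. On chromosome 2, a window from POLR1B to MAP3K2 (median -0.69, 2 called higher and 21 lower) holds POLR1B, IL1B and GYPC. Its median was 0.06 with DMSO and -0.11, -0.04 and -0.44 in the BMS911543, CYT387 and SAR302503 lines. Whether position plays a part in the values of these genes was not tested. By whole chromosome, the median was highest on chromosome 15, with 0.30 over 369 genes (0.31, 0.33 and 0.29 in the 3 libraries); the BMS911543 line had 0.29 there, the CYT387 line -0.06 without library 2, and the SAR302503 line 0.03. It was lowest on chromosome 2, with -0.19 over 732 genes. These windows were chosen as the extremes and carry no test.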
